A study of Homo sapiens with 6 samples.

Results

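The respiratory chain was followed in 6 human prostate cancer cell lines through the messenger RNAs of its subunits, of which a few are encoded by the mitochondrial genome and the rest by the nucleus. Members were the protein-coding genes whose symbols mark them as subunits of complexes I to V, with assembly factors left out, and they numbered 103 of the 60658 genes listed in each file. The mitochondrial genome holds 13 of them and nuclear chromosomes 90. Complex I has 45 members, complex II 4, complex III 10, complex IV 22 and complex V 22. The resistant lines TaxR and DTXR were kept in 5 nM docetaxel, TaxR being derived from C4-2B and DTXR from DU145. The resistant lines CabR and CTXR were kept in 5 nM cabazitaxel and came from TaxR and from DTXR. Their parents C4-2B, a castration-resistant line, and DU145, a prostate carcinoma line, completed the set. Docetaxel and cabazitaxel are taxanes, which stabilise microtubules, and no line received a further treatment before RNA was taken. With 1 library per line, differences between any 2 lines are given by size and carry no p-value, and tests were made only over all 6 libraries, by stage and by lineage. The TaxR sample is titled with the added word old, unexplained in the labels.

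The respiratory chain passes electrons from NADH and succinate to oxygen and pumps protons across the inner mitochondrial membrane, and ATP synthase uses the proton gradient to make ATP. Complexes I, III, IV and V combine subunits of both genomes, whereas complex II is wholly nuclear encoded. The mitochondrial mRNAs are cut from long polycistronic transcripts of each strand of the circular genome and made by their own polymerase, POLRMT, while the nuclear subunit genes are transcribed one by one, many under the factors NRF1, GABPA and YY1. Prostate cancer cells are known for an active citric acid cycle compared with healthy prostate epithelium, which exports citrate.

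The compact mitochondrial genome sets a limit on single-gene values, because neighbouring reading frames share bases. The coding sequence of MT-ATP6 begins inside that of MT-ATP8, on the forward strand at chrM:8527-8572 (46 bases, GRCh38), and that of MT-ND4 begins inside MT-ND4L at chrM:10760-10766 (7 bases). Both shared stretches are given from GENCODE release 29, with the start codon of the second gene and the stop codon of the first in capitals.
MT-ATP8/MT-ATP6: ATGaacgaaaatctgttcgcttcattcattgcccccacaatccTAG
MT-ND4L/MT-ND4: ATGcTAA
Each pair is carried on 1 mRNA, so reads of either gene come from the same molecule, and the separate values of MT-ATP8, MT-ATP6, MT-ND4L and MT-ND4 depend on how the authors' software divided them. MT-ATP8 (207 bases) and MT-ND4L (297 bases) are also the shortest of the 13 genes, where a value scaled by length is least certain. MT-ND6 is the 1 member on the other strand, and the use of strand in counting is not given in the sources used here.

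Values are FPKM as deposited, fragments scaled for transcript length and library size. A gene was measured when it reached 1 FPKM in at least 1 library, which held for all 13 mitochondrial and 84 of the 90 nuclear members. Differences are log2 ratios of (FPKM + 1), a scale that understates changes of low genes, and a gene was past the size rule at a log2 ratio of 1 or more in either direction. Each library summed to 711766 to 818430 FPKM, and read depth is unknown. All 8 markers fixed for the C4-2B side, among them KLK3 and KLK2, were at 36.0 FPKM or more in TaxR, CabR and C4-2B, and all 8 fixed for the DU145 side were at 29.1 FPKM or more in DTXR, CTXR and DU145. The C4-2B-side markers summed to 6.58 to 11.3 FPKM in the DU145 lineage. TaxR also held low levels of all 8 DU145-side markers, with a sum of 26.4 FPKM against 0.808 in C4-2B. CabR had 3.27 FPKM and DU145 had 2225. The difference between the mitochondrial and nuclear medians in TaxR and the count of mitochondrial members past the rule are therefore also given with a DU145-lineage share of 1.46% removed. In bulk RNA, fewer cells of a type and less RNA per cell cannot be told apart, and no mitochondrial DNA was measured.

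The mitochondrial mRNAs made up most of the respiratory chain's RNA in every line. They held 25.4% of the total FPKM in TaxR and 24.0% in CabR, against 16.1% in C4-2B. In the other lineage they held 37.1% in DTXR and 33.0% in CTXR, against 37.1% in DU145. All 90 nuclear members together held 2.37% in TaxR, 2.71% in CabR, 2.47% in C4-2B, 1.19% in DTXR, 1.55% in CTXR and 1.19% in DU145. That total includes the mitochondrial genome, so a higher mitochondrial share by itself lowers the nuclear one. Of the FPKM outside the mitochondrial genome, the nuclear members held 3.28% in TaxR and 3.69% in CabR, against 3.003% in C4-2B. On this base TaxR lay above its parent and not below it. The other lineage had 1.988% in DTXR and 2.396% in CTXR, against 1.9996% in DU145. Of the FPKM of all members, the mitochondrial share was 91.5% in TaxR and 89.8% in CabR, against 86.7% in C4-2B, and 96.9% in DTXR and 95.5% in CTXR, against 96.9% in DU145. The resistant lines thus lay above the parent in the C4-2B lineage and at or below it in the DU145 lineage. These shares are taken within a library and do not depend on how the libraries were scaled to each other.

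In the C4-2B lineage, the mitochondrial mRNAs were higher in both resistant lines, and the nuclear members differed much less. The median log2 ratio of the 13 mitochondrial members was 0.85 in TaxR and 0.65 in CabR, each against C4-2B. For the 84 measured nuclear members it was 0.10 in TaxR and 0.18 in CabR, and for all measured genes 0.00 in both. In TaxR each of the 84 nuclear members lay below the mitochondrial median, and all 13 mitochondrial members lay above the nuclear median. In CabR 78 of 84 nuclear members lay below the mitochondrial median and 12 of 13 mitochondrial members above the nuclear one. The differences between the medians were 0.76 in TaxR (0.74 with the DU145-lineage share removed) and 0.47 in CabR. TaxR and CabR were compared with the same C4-2B library, so these results are not independent of each other.

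**Figure D1:**
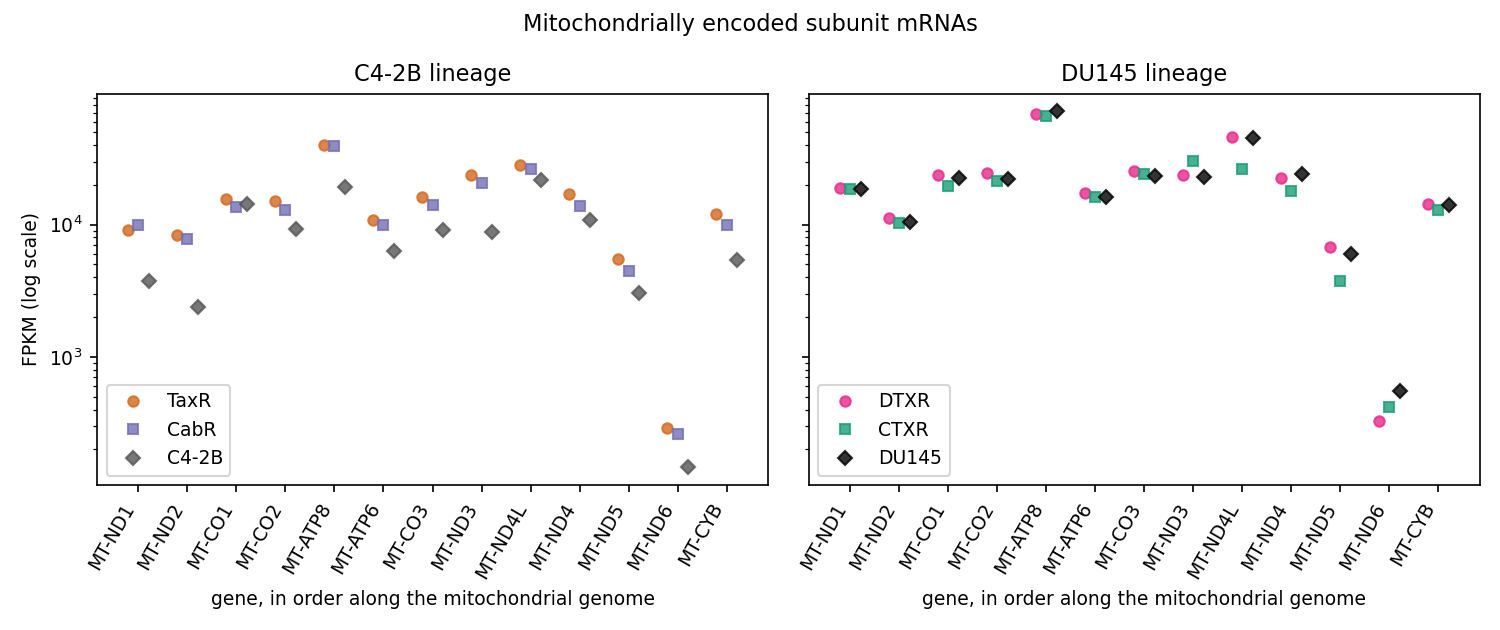
FPKM of the 13 mitochondrially encoded mRNAs on a log axis, with the genes in their order along the mitochondrial genome, for the C4-2B lineage (left) and the DU145 lineage (right). Each point is 1 library. TaxR and CabR both lie above C4-2B for 12 of 13 genes, for MT-CO1 CabR lies below it, and MT-ND6 is the lowest gene in all 6 libraries.

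MT-ND1, MT-ND2 and MT-ND3, all of complex I, had the highest ratios. MT-ND2, which forms part of the proton-pumping membrane arm, had 8296 FPKM in TaxR and 7839 in CabR, against 2368 in C4-2B. MT-ND1, which lies at the junction where ubiquinone binds, had 9050.5 FPKM in TaxR and 10015 in CabR, against 3755 in C4-2B. MT-ND3, another membrane-arm subunit, had 23673 FPKM in TaxR and 20481 in CabR, against 8872 in C4-2B. All of these were past the size rule in both resistant lines, with log2 ratios of 1.81 and 1.73 for MT-ND2, 1.27 and 1.42 for MT-ND1, and 1.42 and 1.21 for MT-ND3, in TaxR and in CabR in that order. MT-ATP8, a small membrane subunit of ATP synthase, had 39904 FPKM in TaxR and 39052 in CabR, against 19145 in C4-2B (1.06 and 1.03). MT-CYB, the cytochrome b of complex III, had 11952 FPKM in TaxR and 9860 in CabR, against 5370 in C4-2B, and its log2 ratios of 1.15 and 0.88 put it past the rule in TaxR alone. In all, 5 of 13 mitochondrial members were past the rule upwards in TaxR (also 5 with the DU145-lineage share removed), where 2.52% of all measured genes were, and 4 in CabR, where 2.67% were. None was past it downwards, against 5.64% of measured genes in TaxR and 6.2% in CabR.

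The remaining mitochondrial members ranged from a difference just under the rule to almost none. MT-ND6 had 289 FPKM in TaxR and 263 in CabR, against 147 in C4-2B (log2 ratios 0.97 and 0.84). MT-CO1, the catalytic subunit of cytochrome c oxidase, had 15567 FPKM in TaxR and 13678 in CabR, against 14443 in C4-2B, with log2 ratios of 0.11 and -0.08. It was the mitochondrial member that differed least. The other catalytic-core subunits of the same enzyme differed more, MT-CO2 with 15039 FPKM in TaxR and 12833 in CabR, against 9260 in C4-2B, and MT-CO3 with 16223 FPKM in TaxR and 14155 in CabR, against 9039 in C4-2B. MT-ND4L, with 28481 FPKM in TaxR and 26525 in CabR, against 21703 in C4-2B, had the next smallest log2 ratio in TaxR (0.39) and in CabR (0.29). MT-ND5, a proton-pumping subunit at the tip of the membrane arm, had log2 ratios of 0.85 and 0.57, MT-ATP6, the proton channel subunit, of 0.77 and 0.65, and MT-ND4 of 0.66 and 0.35. The mitochondrial messages therefore did not differ by a common factor.

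**Figure D2:**
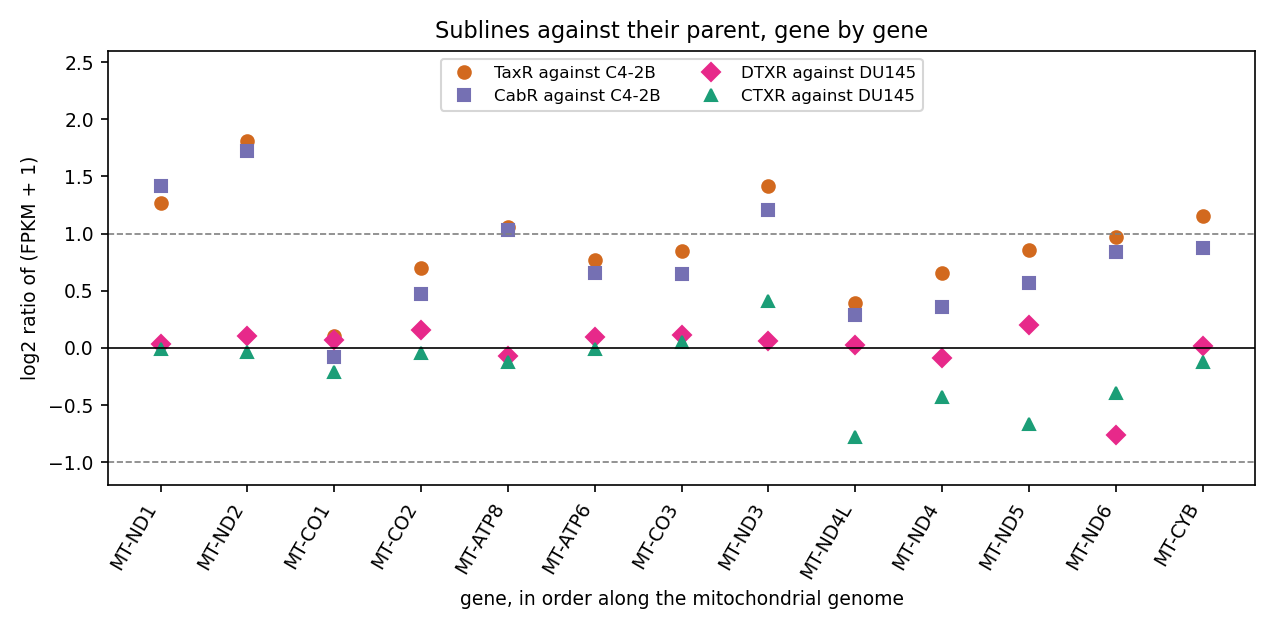
Log2 ratios of (FPKM + 1) of the 13 mitochondrial members, in genome order, for each resistant line against its parent (1 library per line, dashed lines at the size rule of 1). TaxR and CabR lie above 0 except for MT-CO1 in CabR, whereas DTXR and CTXR lie near or below 0 apart from MT-ND3 in CTXR (0.41), with MT-ND6 lowest in DTXR and MT-ND4L lowest in CTXR.

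The mitochondrial ribosomal RNAs, which are no members but come from the same strand, were also higher in these lines. MT-RNR1, the small-subunit rRNA, had 5092 FPKM in TaxR and 4305 in CabR, against 1444 in C4-2B (log2 ratios 1.82 and 1.58), and MT-RNR2, the large-subunit rRNA, had ratios of 0.34 and 0.33. The libraries were made with an mRNA kit, and how evenly it took up rRNA is not known. Nuclear copies of mitochondrial genes could take reads of the mitochondrial members. Of 391 such pseudogenes listed, 15 were measured, and their summed FPKM was 2.05% to 2.49% of that of the mitochondrial members in the 6 libraries. MTATP6P1 on chromosome 1, by its symbol a copy of MT-ATP6, held most of it, with 3934 FPKM in TaxR and 3606 in CabR, against 2755 in C4-2B. MT-ATP6 itself had 10854 FPKM in TaxR and 9985 in CabR, against 6353 in C4-2B. In DU145 the copy had 6119 FPKM and MT-ATP6 16288. How reads were divided between these genes is not known, so the values of MT-ATP6 are less certain than the summed share implies.

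Among nuclear members in the C4-2B lineage, none was past the size rule upwards in TaxR or in CabR, where 1.84% and 2.17% of measured nuclear coding genes were. Downwards none was past it in TaxR, where 4.1% of those genes were, and 2 of 84 were in CabR, where 4.99% were. COX7B2, a paralogue of the complex IV subunit COX7B, had 10.2 FPKM in TaxR and 3.21 in CabR, against 9.29 in C4-2B, with log2 ratios of 0.12 and -1.29. The read-through gene NDUFC2-KCTD14 had 9.74 FPKM in TaxR and 7.87 in CabR, against 20.0 in C4-2B (log2 ratios -0.97 and -1.24). It shares exons with NDUFC2, so its value is uncertain, and NDUFC2 itself had 210 FPKM in TaxR and 229 in CabR, against 205 in C4-2B.

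The highest nuclear ratios in this lineage were shared out over several complexes. NDUFA12, an accessory subunit of complex I, had 119 FPKM in TaxR and 143 in CabR, against 73.4 in C4-2B (0.69 and 0.95). ATP5PF, a stalk subunit of ATP synthase, had 148 FPKM in TaxR and 175 in CabR, against 93.3 in C4-2B (0.66 and 0.90). UQCR10, a small subunit of complex III, had 137 FPKM in TaxR and 163 in CabR, against 96.1 in C4-2B (0.51 and 0.76). None of them reached a log2 ratio of 1. NDUFV1, which carries the NADH-binding site of complex I, was the second lowest in TaxR, with 125 FPKM in TaxR and 184 in CabR, against 178 in C4-2B (-0.51 and 0.04). By complex, the nuclear medians in TaxR were 0.11 for complex I, 0.03 for II, 0.08 for III, 0.04 for IV and 0.14 for V. In CabR they were 0.17, 0.15, 0.12, 0.14 and 0.34 in the same order, so complex V had the highest median in both lines.

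The step from TaxR to CabR moved the genomes' members in opposite directions by small amounts. The mitochondrial median was -0.19, with 12 of 13 members lower in CabR and MT-ND1 the exception at 0.15. The nuclear median was 0.10, with 64 of 84 members higher and 20 lower in CabR, and all 19 measured nuclear members of complex V were higher, by 0.01 to 0.39. No mitochondrial member was past the rule, against 1.75% of measured genes upwards and 1.84% downwards. Among nuclear members COX7B2 alone was past it, downwards (-1.41), against 1.21% of measured nuclear coding genes, and none upwards, against 1.08%.

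In DTXR, the docetaxel-resistant line of the DU145 lineage, the mitochondrial mRNAs stood close to the parent's levels. Their median log2 ratio was 0.06 and that of the nuclear members 0.04, a difference of 0.02. MT-ND2 had 11267 FPKM in DTXR and 10237 in CTXR, against 10482 in DU145, and MT-ND1 had 19033 FPKM in DTXR and 18473 in CTXR, against 18605 in DU145. Apart from MT-ND6, all mitochondrial log2 ratios in DTXR lay between -0.08 and 0.20. MT-ND6 had 325 FPKM in DTXR and 421 in CTXR, against 554 in DU145 (-0.77 and -0.40). No mitochondrial member was past the size rule in DTXR, against 5.37% of measured genes upwards and 5.1% downwards. No nuclear member was either, against 5.08% and 4% of measured nuclear coding genes.

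The nuclear members of DTXR that came closest to the rule belonged to different complexes. NDUFA3, a small membrane-arm accessory subunit, was highest at 0.97, followed by NDUFA4 at 0.90, a protein first assigned to complex I and now counted with complex IV, with 79.1 FPKM in DTXR and 69.6 in CTXR, against 41.9 in DU145. COX7A2L, known for joining complexes III and IV into supercomplexes, had 167 FPKM in DTXR and 141 in CTXR, against 102 in DU145 (0.71 and 0.47). UQCRC1, a core subunit of complex III, was lowest, with 65.7 FPKM in DTXR and 86.5 in CTXR, against 107 in DU145 (-0.70 and -0.31).

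**Figure D3:**
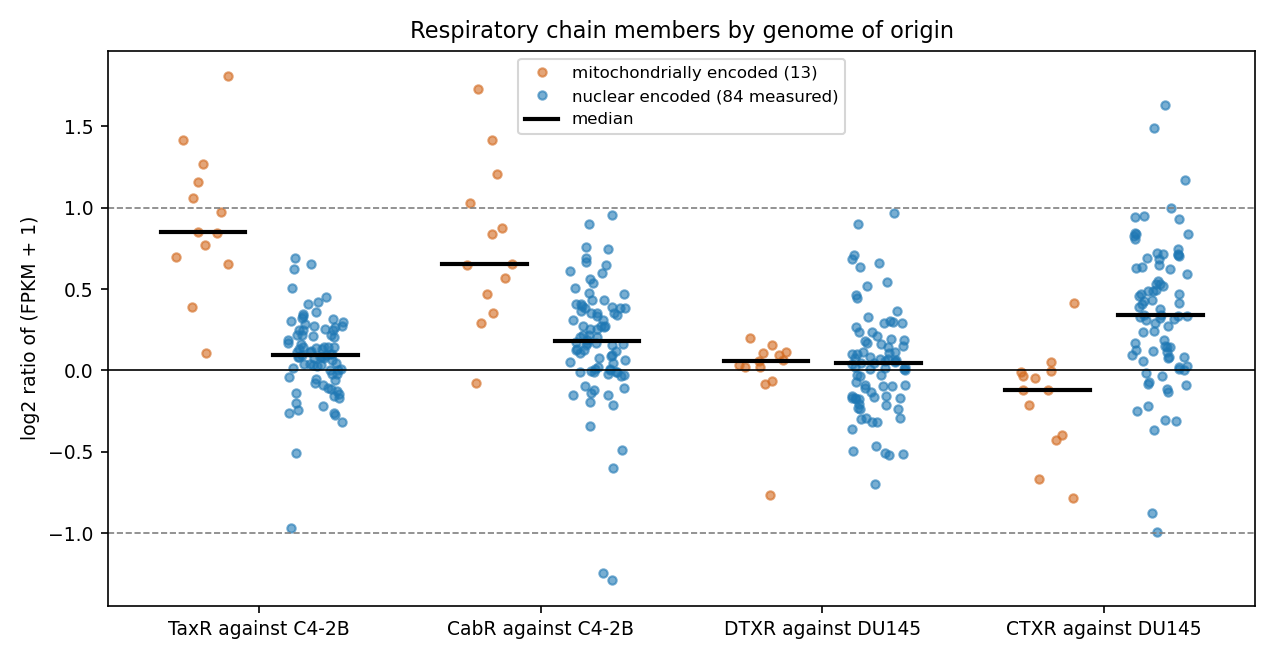
Log2 ratios of (FPKM + 1) of all 97 measured members for each resistant line against its parent, with mitochondrial members in orange, nuclear members in blue and black bars at the medians. The mitochondrial median lies above the nuclear one in TaxR (0.85 against 0.10) and CabR (0.65 against 0.18), next to it in DTXR, and below it in CTXR (-0.12 against 0.34).

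CTXR showed the opposite order to TaxR and CabR, with nuclear members higher and mitochondrial members slightly lower than in DU145. The nuclear median was 0.34, with 69 of 84 members higher and 14 lower in CTXR, and 1 (COX7B2) listed at 0 in all 3 libraries of the lineage. The median of measured nuclear coding genes was 0.01. The mitochondrial median was -0.12, with 11 of 13 members lower, so the difference between the medians was -0.46. MT-ND4L had 26171 FPKM in CTXR, against 45747 in DTXR and 45060.4 in DU145, and MT-ND5 had 3746 FPKM in CTXR, against 6836 in DTXR and 5959 in DU145. MT-ND4 had 17900 FPKM in CTXR, against 22693 in DTXR and 24061 in DU145. These neighbours in the genome, with log2 ratios against DU145 of -0.78, -0.67 and -0.43, were the lowest 3, while MT-ND3, the gene just before them, had 30522 FPKM in CTXR, against 23894 in DTXR and 22918 in DU145 (0.41 against DU145). None reached the size rule, against 7.45% of measured genes upwards and 5.47% downwards.

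Of the 84 nuclear members, 3 were past the rule upwards in CTXR against DU145, a smaller share than the 6.98% of all measured nuclear coding genes, and none downwards, where 4.45% were. NDUFB1, an accessory subunit of the complex I membrane arm, had 581 FPKM in CTXR and 291 in DTXR, against 187 in DU145, a log2 ratio of 1.63 in CTXR. NDUFA3 had 57.5 FPKM in CTXR and 39.6 in DTXR, against 19.8 in DU145 (1.49). ATP5MG, a membrane subunit that helps ATP synthase form dimers, had 121 FPKM in CTXR and 86.1 in DTXR, against 53.3 in DU145 (1.17). In all of these CTXR was highest, DTXR intermediate and DU145 lowest. Just outside the rule lay ATP5ME, with 271 FPKM in CTXR and 128 in DTXR, against 135 in DU145 (0.999), and NDUFA4L2, a paralogue of NDUFA4, with 1.23 FPKM in CTXR and 2.56 in DTXR, against 3.44 in DU145 (-0.99). A difference in the nuclear members of CTXR was thus spread over many members and mostly under the size rule.

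The promoters of those 3 genes are shown because they are the nuclear members past the rule upwards in a resistant line against its parent, in windows from 250 bases before to 50 after the gene start of the RefSeq annotation (GRCh38.p14). Matches to the words searched are in capitals, as they read on the printed strand.
NDUFA3 (chr19:54102605-54102904, forward strand): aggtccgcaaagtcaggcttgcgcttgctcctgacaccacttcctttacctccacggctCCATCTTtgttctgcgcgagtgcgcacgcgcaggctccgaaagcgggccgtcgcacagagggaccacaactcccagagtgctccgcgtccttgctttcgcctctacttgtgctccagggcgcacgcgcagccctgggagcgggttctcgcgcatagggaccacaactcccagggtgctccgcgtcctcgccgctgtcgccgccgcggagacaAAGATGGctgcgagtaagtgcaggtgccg
NDUFB1 (chr14:92121657-92121956, reverse strand): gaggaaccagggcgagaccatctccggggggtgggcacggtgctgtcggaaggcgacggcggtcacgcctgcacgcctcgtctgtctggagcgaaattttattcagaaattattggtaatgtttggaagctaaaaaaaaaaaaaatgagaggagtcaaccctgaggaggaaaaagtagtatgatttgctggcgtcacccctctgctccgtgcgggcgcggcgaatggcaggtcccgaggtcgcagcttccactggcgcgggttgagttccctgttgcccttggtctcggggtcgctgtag
ATP5MG (chr11:118401356-118401655, forward strand): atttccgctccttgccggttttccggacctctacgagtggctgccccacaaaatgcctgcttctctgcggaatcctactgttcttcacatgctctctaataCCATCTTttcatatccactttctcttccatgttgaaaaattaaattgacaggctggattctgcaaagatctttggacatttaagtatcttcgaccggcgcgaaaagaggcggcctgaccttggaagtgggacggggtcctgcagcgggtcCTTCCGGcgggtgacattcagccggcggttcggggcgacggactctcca
Exact words were searched on both strands, CCGGAAG as an ETS-type word, GCATGCG as an NRF1-type word and AAGATGG as a YY1-type word, of which the first and the last can overlap by their shared AAG. ATP5MG held the ETS-type word on the reverse strand, nearest the gene start, and the YY1-type word on the reverse strand. NDUFA3 held the YY1-type word once on each strand, and in the window of NDUFB1 none of these letters occurred. Of 68 nuclear members with a promoter in the table, 29.4% held the ETS-type word, 19.1% the NRF1-type word and 23.5% the YY1-type word, against 10.2%, 3.88% and 5.85% of all 34943 promoters. The latter were not limited to measured coding genes, whereas each member was measured and counted with 1 promoter. The shares therefore compare unlike sets, and promoters of other measured coding genes were not counted apart. In CTXR against DU145, the 20 members with the ETS-type word had a median log2 ratio of 0.42 and the 48 without it 0.33. The 16 with the YY1-type word had a median of 0.20 and the 52 without it 0.42. The 13 with the NRF1-type word had a median of 0.31 and the 55 without it 0.43. In CabR against C4-2B, the members with the NRF1-type word had a median of 0.41 and those without it 0.16. There the medians with and without the word were 0.27 and 0.19 for the ETS-type word and 0.17 and 0.21 for the YY1-type word. For the NRF1-type word they were 0.25 and 0.09 in TaxR against C4-2B, and 0.02 and 0.06 in DTXR against DU145. None of these differences was tested.

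Nuclear members with short transcripts had the higher ratios in CTXR. The 25 measured nuclear members whose median annotated coding transcript is under 600 bases had a median log2 ratio of 0.53 against DU145. The 41 of 600 to under 1000 bases had 0.33 and the 18 of 1000 bases or more 0.14. All measured nuclear coding genes in the same length classes had medians of 0.04, 0.08 and 0.00. The cytosolic ribosomal protein genes, 84 short and abundant messages that are no members, had a median of 0.27 in CTXR. In DTXR the members' medians were 0.05, 0.05 and -0.04, and in TaxR 0.10, 0.09 and 0.12. In CTXR against DTXR the members' medians were 0.50, 0.24 and 0.12 from the shortest class to the longest. Those of all measured nuclear coding genes were 0.05, 0.03 and -0.02 there, in the same order. The part that transcript length plays in the CTXR result was not tested further.

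**Figure D4:**
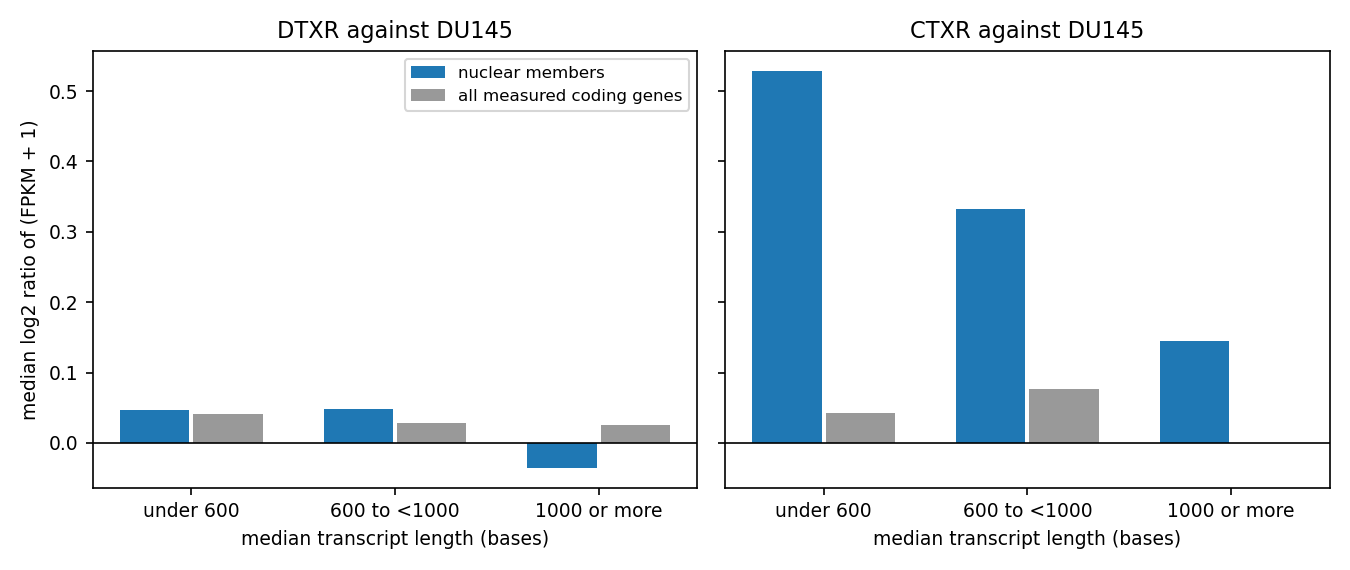
Median log2 ratio of (FPKM + 1) by length class of the annotated coding transcript, for nuclear members (blue) and all measured nuclear coding genes (grey), in DTXR (left) and CTXR (right) against DU145. In CTXR the members' medians are 0.53, 0.33 and 0.14 from the shortest class to the longest, whereas those of all coding genes stay between 0.00 and 0.08.

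Relative to DTXR, the line it came from, CTXR again had higher nuclear members (median 0.30, with 70 of 84 higher and 13 lower) and lower mitochondrial members (median -0.14, with 11 of 13 lower). Past the rule upwards were NDUFB11, a complex I accessory subunit with 74.5 FPKM in CTXR, against 33.0 in DTXR and 38.3 in DU145 (1.15 against DTXR), COX6C, a complex IV subunit with 455 FPKM in CTXR, against 213 in DTXR and 239 in DU145 (1.10), and ATP5ME (1.07). These 3 of 84 stand beside 6.65% of measured nuclear coding genes, and none was past it downwards, against 4.77%. No mitochondrial member passed in either direction, against 7.29% and 5.25% of measured genes.

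Setting the genomes against each other within each complex gave the same order of libraries in complexes I, III and IV, with the nuclear side taken from the 82 members at 1 FPKM or more in all 6 libraries. In complex I the geometric mean FPKM of the mitochondrial members was 64.9 times that of the nuclear members in TaxR and 56.3 times in CabR, against 33.1 times in C4-2B. In complex IV the ratio was 81.6 in TaxR and 66.8 in CabR, against 57.4 in C4-2B. Complex V had 98.2 in TaxR and 82.4 in CabR, against 57.8 in C4-2B. In the DU145 lineage the complex I ratio was 179 in DTXR and 117 in CTXR, against 189 in DU145, and that of complex V was 286 in DTXR and 217 in CTXR, against 282 in DU145. Complex III, with MT-CYB as its mitochondrial member, had 71.0 in TaxR and 54.9 in CabR, against 34.4 in C4-2B, and 177 in DTXR and 143 in CTXR, against 186 in DU145. TaxR was above CabR and CabR above C4-2B in each complex, and CTXR was below DTXR and DU145 in each.

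**Figure D5:**
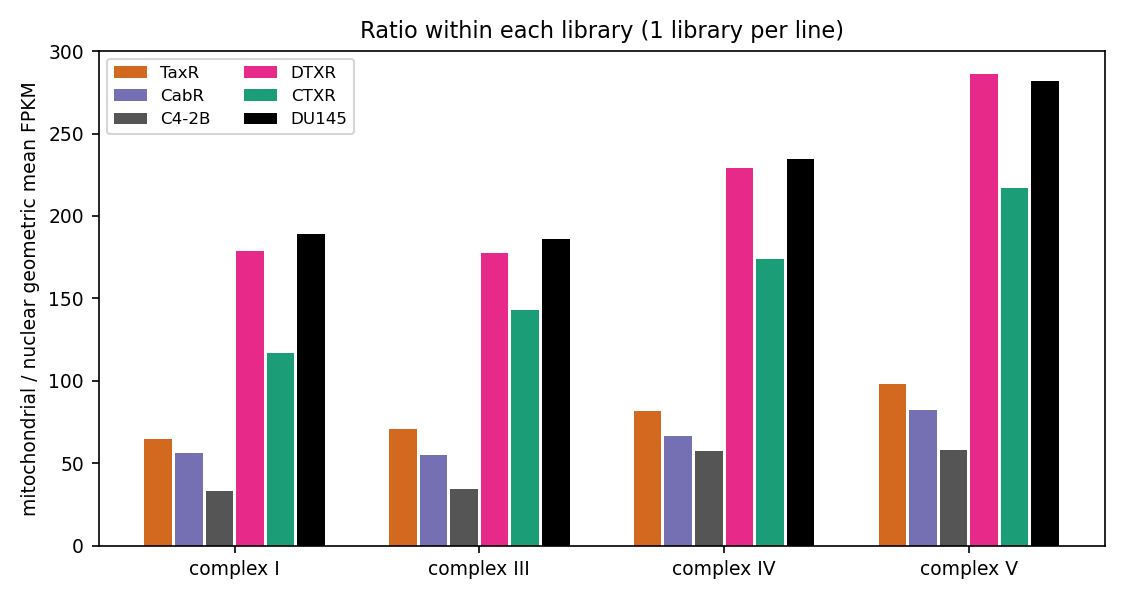
Ratio of the geometric mean FPKM of mitochondrial members to that of nuclear members at 1 FPKM or more in all 6 libraries, by complex, with 1 bar per library. In complex I the bars stand at 64.9, 56.3 and 33.1 for TaxR, CabR and C4-2B and at 179, 117 and 189 for DTXR, CTXR and DU145.

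Complex II, which has no mitochondrial subunit, differed little, but outside CTXR this was not particular to it. Its median log2 ratio was 0.03 in TaxR, against 0.04 to 0.14 for the nuclear members of the other complexes. The same comparison gave 0.15 against 0.12 to 0.34 for CabR, and 0.04 against -0.03 to 0.10 for DTXR. CTXR had 0.27 against 0.34 to 0.43. SDHA, the flavoprotein that oxidises succinate, had 79.7 FPKM in TaxR and 85.4 in CabR, against 80.8 in C4-2B, and 70.8 in DTXR and 90.3 in CTXR, against 76.5 in DU145. SDHC, a membrane anchor, had 115 FPKM in DTXR and 121 in CTXR, against 83.2 in DU145, with log2 ratios of 0.46 and 0.53. These were the largest among the 4 members in those lines. In TaxR and CabR the log2 ratios of the 4 members lay between -0.24 and 0.43.

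The isoforms of complex IV and complex V subunits differed widely in level. COX4I1 had 627 FPKM in TaxR and 648 in CabR, against 700.3 in C4-2B, and 291 in DTXR and 337 in CTXR, against 269 in DU145, while its isoform COX4I2 reached 0.0866 FPKM at most. COX6A2 and COX7A1, isoforms typical of heart and skeletal muscle, were listed at 0 in all 6 libraries, whereas COX6A1 lay between 318 and 837 FPKM. The other members under 1 FPKM in every library were COX6B2, COX8C and ATP5MGL. COX7B2, with 10.2 FPKM in TaxR and 3.21 in CabR, against 9.29 in C4-2B, was listed at 0 in DTXR, CTXR and DU145, and COX7B lay between 16.6 and 42.8 FPKM in the 6 libraries. The 3 genes for the c-ring subunit of ATP synthase, which encode the same mature protein, differed in rank between lineages. ATP5MC2 had 427 FPKM in TaxR and 458 in CabR, against 345 in C4-2B, and 419 in DTXR and 587 in CTXR, against 427 in DU145. ATP5MC3 had 301 FPKM in TaxR and 356 in CabR, against 272 in C4-2B, but 109 in DTXR and 141 in CTXR, against 93.6 in DU145. In the DU145 lineage ATP5MC3 was the lowest of the 3, and in the C4-2B lineage ATP5MC1 was, with 208 FPKM in TaxR and 249 in CabR, against 249.8 in C4-2B.

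Between the lineages, mitochondrial members stood higher in the DU145 lineage and nuclear members lower. For 10 of 13 mitochondrial members DTXR, CTXR and DU145 all lay above TaxR, CabR and C4-2B, as did 27.2% of measured genes. For 59 of 84 nuclear members all 3 lay below, as did 28.6% of measured genes, and NDUFB8 alone of the nuclear members lay above. limma, fitted to the 6 libraries with stage and lineage as terms, called 6 mitochondrial members higher and 50 nuclear members lower in the DU145 lineage at a Benjamini-Hochberg adjusted p under 0.05, where 18.7% of measured genes were called higher and 20.3% lower. No nuclear member was called higher, though NDUFB8 had an unadjusted p of 0.0209. The 3 libraries of a lineage are a parent and its descendants and not separate samples, so these p-values compare the libraries of 2 cell lines.

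MT-ND1 was the mitochondrial member with the largest lineage difference, a log2 value of 1.42 (SE 0.31, limma adjusted p 0.0119), and MT-ATP8 followed at 1.15 (SE 0.29, limma adjusted p 0.0200). All 3 mitochondrial members of complex IV were called, MT-CO1 at 0.59, MT-CO2 at 0.90 and MT-CO3 at 0.93, as was MT-ATP6 at 0.91. The value of MT-ATP6 carries the limit set by its nuclear copy MTATP6P1. Of the 7 mitochondrial members of complex I only MT-ND1 was called, though others came near the limit. MT-ND2 was at 0.99 (limma adjusted p 0.0694), MT-ND6 at 0.92 (0.0650) and MT-ND4 at 0.66 (0.0641). All of these were larger than MT-CO1 (limma adjusted p 0.0473). NDUFB4, a complex I accessory subunit, had 80.1 FPKM in DTXR, 126 in CTXR and 70.0 in DU145, all below the 590.4 FPKM in TaxR, 500.3 in CabR and 383 in C4-2B. Its lineage difference of -2.43 (SE 0.22, limma adjusted p 0.000448) was second to that of COX7B2 at -2.97. The calls downwards comprised 22 of 38 nuclear members of complex I, 1 of 4 of complex II, 7 of 9 of complex III, 9 of 14 of complex IV and 11 of 19 of complex V. The nuclear medians were -0.86, -0.23, -0.86, -1.05 and -0.65 in the same order. With any 1 library left out, no mitochondrial member was called and 13 (without TaxR) to 33 (without CTXR) nuclear members were called lower, 14 without DTXR.

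No member and no gene passed the same limma fit for a stage of resistance, which rests on the 2 lineages as its only replication. Between the docetaxel-resistant lines and the parents, 290 measured genes were higher and 482 lower at an unadjusted p under 0.05, and no member was among them. Between the cabazitaxel-resistant lines and the parents, 343 were higher and 492 lower, with 8 nuclear members among the higher ones and no mitochondrial member. COX6B1, a complex IV subunit at the side facing cytochrome c, had the smallest unadjusted p of the members (0.0105, limma adjusted p 0.864), with a log2 value of 0.75 (SE 0.21). The others were NDUFA3, NDUFB1, NDUFB2, NDUFA12, UQCR10, ATP5ME and ATP5PD, at 0.56 to 1.05. Each of the 8 was higher than its parent in CabR and in CTXR. The fit averages these ratios, so their agreement is part of how the 8 were picked and no separate support.

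Relative to the parents, the median of the 78 mitochondrial ribosomal protein genes was 0.30 (TaxR), 0.29 (CabR), 0.03 (DTXR) and 0.06 (CTXR), with 0, 3, 1 and 0 members past the rule upwards and 0, 0, 1 and 2 downwards. Of all measured genes, 2.52%, 2.67%, 5.37% and 7.45% were past it upwards and 5.64%, 6.2%, 5.1% and 5.47% downwards in the same order of lines. The 19 genes of mitochondrial RNA processing and stability had medians of 0.25, 0.21, 0.07 and -0.33 in the same order of lines. Among them FASTKD5, needed to mature mitochondrial mRNAs that no tRNA flanks, was the 1 gene past the rule, upwards, with 16.6 FPKM in TaxR and 15.4 in CabR, against 6.67 in C4-2B (1.20 and 1.10), while DTXR had 7.51 and CTXR 6.87, against 8.89 in DU145.

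The median of the 14 genes of mitochondrial transcription and replication was 0.16 (TaxR), 0.24 (CabR), -0.07 (DTXR) and -0.24 (CTXR). POLRMT had 30.5 FPKM in TaxR and 37.8 in CabR, against 29.9 in C4-2B, and 49.3 in DTXR and 40.4 in CTXR, against 47.6 in DU145. TFAM, which packages mitochondrial DNA and starts its transcription, had 23.4 FPKM in TaxR and 22.8 in CabR, against 19.9 in C4-2B, and 26.4 in DTXR and 18.3 in CTXR, against 29.7 in DU145. Neither was past the size rule in any line. TWNK, the mitochondrial DNA helicase, was past it in CTXR downwards, with 7.91 FPKM in CTXR and 15.8 in DTXR, against 26.5 in DU145 (-1.63), and MTERF1, a mitochondrial termination factor, upwards in CabR (1.09). The median of the 8 measured nuclear regulators of respiratory genes was 0.17 (TaxR), 0.29 (CabR), 0.05 (DTXR) and -0.27 (CTXR). PPRC1, a coactivator related to PGC-1 alpha, had 21.2 FPKM in TaxR and 16.6 in CabR, against 8.62 in C4-2B (1.21 and 0.87), and 32.7 in DTXR and 13.5 in CTXR, against 37.2 in DU145 (-0.18 and -1.40). PPARGC1A, which encodes PGC-1 alpha, stayed under 1 FPKM in all 6 libraries.

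The median of the 10 genes of oxygen sensing and respiration was -0.93 (TaxR), -1.03 (CabR), -0.06 (DTXR) and -0.08 (CTXR). In TaxR and CabR 5 of 10 were past the rule downwards, where 5.64% and 6.2% of measured genes were, among them PDK1, the kinase that restrains pyruvate entry into the citric acid cycle, with 16.5 FPKM in TaxR and 13.1 in CabR, against 49.1 in C4-2B. LDHA, which converts pyruvate to lactate, had 652 FPKM in TaxR and 557 in CabR, against 1326 in C4-2B. BNIP3, a receptor for the removal of mitochondria, had 156 FPKM in TaxR and 114 in CabR, against 439 in C4-2B. In DTXR and CTXR these 3 had log2 ratios between -0.77 and 0.15. HIF1A was past the rule upwards in DTXR and CTXR, with 101 FPKM in DTXR and 106 in CTXR, against 48.9 in DU145. In CTXR BNIP3L was past it upwards as well (1.06) and VHL downwards (-1.08).

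Among other genes of electron transfer, CYCS, the cytochrome c that links complexes III and IV, had 129 FPKM in TaxR and 221 in CabR, against 92.5 in C4-2B, and 139 in DTXR and 56.2 in CTXR, against 127 in DU145. It was past the rule upwards in CabR (1.25) and downwards in CTXR (-1.16). SQOR, which passes electrons from sulfide to ubiquinone, was past it upwards in DTXR (1.34) and CTXR (1.25). The median of these 8 genes was -0.01 (TaxR), 0.06 (CabR), 0.13 (DTXR) and -0.01 (CTXR). They include enzymes such as SQOR and ETFDH, and CYC1, a complex III subunit that the symbol rule left out of the members. The 16 assembly factors of complex I had medians of 0.25, 0.14, 0.12 and -0.22 in the same order of lines, and NDUFAF1, needed for the early membrane arm, was past the rule downwards in CTXR, with 6.72 FPKM in CTXR and 9.33 in DTXR, against 15.8 in DU145. The 35 assembly factors of complexes II to V had medians of 0.17, 0.21, -0.06 and 0.08, with COX16 and COA3, both needed to assemble complex IV, past the rule upwards in CTXR (1.20 and 1.17), COA7 downwards in CTXR (-1.08) and CMC1 downwards in DTXR. The 18 genes of mitochondrial membrane and matrix mass had medians of 0.14, 0.20, 0.25 and 0.00, with CHCHD3, of the cristae junction complex, past the rule upwards in CabR (1.06).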

How the data were processed

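RNA of 6 cell lines was sequenced, 1 library each; groups came from the labels. Per the labels' protocols, TRIzol RNA went into a directional mRNA kit. HISAT, StringTie, Cuffnorm and GRCh38 come from the submitters' processing notes. Versions, annotation, strand use and joint scaling remain not given in the sources used here. FPKM per gene were deposited by the authors; they are not counts, so no count model was fitted. Gene identifiers were matched to symbols (56550 of 60658) and GENCODE release 29 (57047).

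Ratios used log2(FPKM + 1) with a size rule of 1. limma 3.58.1 in R 4.3.3 (trend, empirical Bayes, two-sided, Benjamini-Hochberg over 17436 measured genes) had stage and lineage as terms. On simulated data for the docetaxel stage (17436 genes), it recovered 13, 48, 50 and 50 of 50 genes changed by 1, 2, 3 and 4 on the log2 scale, with 6 false calls. Python 3.11.15 with numpy 2.4.6, pandas 2.3.3 and matplotlib 3.10.9 was used.

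Members and lists were chosen with earlier results of these data known. Named were the 13 mitochondrial members, nuclear members past the size rule, the 2 most abundant per complex, the 5 highest and 5 lowest per resistant line and isoform families, and list genes past the rule, up to 4 per list and comparison, plus POLRMT, TFAM and PPARGC1A. LDHA, COX7A2L, SDHC and NDUFB8 were also named after their values were seen where the rule did not take them. Promoter words of 7 bases replaced longer ones tried first. Some items named by this rule are not reported here. Alternatives were another pseudocount, filters, rescalings, limma settings, leaving out each library, means for medians, and member subsets.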

Additional observations from a re-analysis of the deposited data

Results flagged for a closer look

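These results are singled out because both resistant lines of one lineage moved one way and both of the other lineage the opposite way, by more than 0.1 on the log2 scale. The difference between the lineages was not tested, since each line has 1 library. MT-ND6, the light-strand complex I gene, had log2 ratios of 0.97 in TaxR and 0.84 in CabR against C4-2B, but -0.77 in DTXR and -0.40 in CTXR against DU145. The small mitochondrial rRNA gene MT-RNR1 had 1.82 in TaxR and 1.58 in CabR, but -0.76 in DTXR and -0.87 in CTXR, with 3123 FPKM in DTXR and 2898 in CTXR, against 5287 in DU145. The libraries were made with an mRNA kit. How evenly it took up MT-ND6 and this rRNA from library to library is not known. The read-through gene ATP5MF-PTCD1 had 0.28 in TaxR and 0.39 in CabR, but -0.51 in DTXR and -0.87 in CTXR.

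The other direction is given here for 2 nuclear members. COX4I1 had -0.16 in TaxR and -0.11 in CabR, but 0.12 in DTXR and 0.32 in CTXR. Its values in CabR and DTXR lie close to the limit of 0.1 and fall inside it at equal upper quartile. COX7A2, a small complex IV subunit, had -0.14 in TaxR and -0.49 in CabR, but 0.37 in DTXR and 0.85 in CTXR.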

How the results depend on the processing

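The difference between the mitochondrial and nuclear medians kept its sign in every setting tried for TaxR (0.73 to 0.83), CabR (0.40 to 0.59, the highest with means), CTXR against DU145 (-0.54 to -0.26) and CTXR against DTXR (-0.49 to -0.26), and lay near 0 for DTXR (-0.05 to 0.10). With only nuclear members of 1000 bases or more, an alternative chosen after seeing the data, it was -0.26 against DU145 and -0.26 against DTXR. Scaling to the same total FPKM moved the median of all genes in TaxR by -0.12; there 3 mitochondrial members were past the size rule (main 5), and 1 nuclear member was past it downwards, as with a pseudocount of 0.1. Against DU145, nuclear members past it downwards in CTXR numbered 2 with pseudocount 0.1, 1 at equal upper quartile and 2 at equal totals outside the mitochondrial genome; against DTXR they numbered 1 with pseudocount 0.1, and 1 was higher at equal totals outside the mitochondrial genome. Upwards, 1 nuclear member passed in CabR at equal upper quartile and 1 at equal totals outside the mitochondrial genome. Without MT-ATP8, MT-ND4L and MT-ND6 the mitochondrial share of members' FPKM was 87.6% in TaxR, 85.0% in CabR, 80.7% in C4-2B, 95.1% in DTXR, 93.3% in CTXR and 95.0% in DU145. In limma, 1 gene was called lower in the cabazitaxel stage with pseudocount 0.1, and 1 nuclear member was higher in the DU145 lineage with pseudocount 0.1, equal upper quartile, median-ratio size factors, equal totals outside the mitochondrial genome (then with 10 mitochondrial members higher) or resistant lines as one group. Without a filter, where limma warned that most variances were 0, it called 9 mitochondrial members, 404 genes higher and 537 lower in the docetaxel stage; 5 mitochondrial and 2 nuclear members, 582 genes higher and 566 lower in the cabazitaxel stage; and 13 mitochondrial and 1 nuclear member higher in the DU145 lineage. Leaving out each library gave 0 mitochondrial members higher, 13 to 33 nuclear members lower, 1003 to 1649 genes higher and 931 to 1618 lower between lineages. Of 2496 values of named members under alternatives, 18 crossed the size rule outwards and 5 inwards. No value past the rule in the main setting changed direction, and changes of sign among smaller values were not counted. With 1 library per line there were no replicates to pair. Pairing by lineage was made through limma's lineage term, which sets each resistant line beside its own parent. Depth is unknown.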
